A study of Paracentrotus lividus with 19 samples.

Results

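The comparison described here is that of Fe2O3 particles against no exposure in embryos of the Mediterranean sea urchin Paracentrotus lividus. It rests on 8 of the 19 libraries of the series, taken by the treatment in their titles: 4 libraries of embryos exposed to Fe2O3 and 4 of unexposed control embryos. Fertilized eggs were exposed for 24 h to Fe2O3 particles, which the labels give as 5e-05 M and 4 mg of iron per L (figures that were not reconciled here), and whole embryos were harvested 24 h after fertilization for poly(A) RNA sequencing. Control embryos received no metal. The other 11 libraries held embryos exposed to FeCl3 (4), to ZnO particles at 1e-05 M and 0.8 mg of zinc per L (3), or to ZnSO4 (4), the salts being matched to the particles in metal. Each library belongs to a set named F1, F2 or F3, and F1 holds 2 control and 2 Fe2O3 libraries while F2 and F3 hold 1 of each. What a set stands for, and whether each library is its own culture, is not in the labels, so the p-values reflect library-to-library spread that may be technical. The design asks whether particles of iron oxide alter the transcripts of the early embryo, and whether they do so as the iron salt or the zinc treatments do.

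Iron enters cells through transport proteins and endocytosis, is held in an inert form by ferritin, and is built into heme by ferrochelatase and into iron-sulfur clusters on scaffold proteins. Animals commonly adjust iron uptake and storage after transcription as well as through transcript levels. Metallothioneins are small proteins rich in cysteine that bind zinc, copper and cadmium, and their genes are switched on by zinc through a metal-responsive transcription factor. Sea urchin embryos express metallothionein genes from early stages and raise their transcripts strongly when zinc is added.

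The libraries held 24780446 to 29068624 counts with Fe2O3 and 26108499 to 30259242 counts without, and the median feature had 88 counts in a library. Levels are given in CPM, a feature's count relative to its library's total after TMM scaling (a correction for library composition), and changes as log2 ratios of Fe2O3 to control with their standard error (SE). Markers of the stage were present in all 8 libraries: SM29 and PM27, proteins of the larval skeleton, at 128 to 174 and 154 to 207 CPM, ENDO16.1.3, a marker of the vegetal plate and gut, at 151 to 236 CPM, and ANKAT-1.1.2, a gene of the apical plate, at 53.2 to 77.4 CPM. In whole embryos, fewer cells of a type and less RNA per cell cannot be told apart. Most features are numbered contigs or LOC identifiers that the files do not pair with gene names, and 574 of the 62865 features tested carried a gene name.

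No feature passed the test between Fe2O3 and control embryos in the fit to all 19 libraries (0% of 62865, edgeR quasi-likelihood test with set as a covariate, Benjamini-Hochberg adjusted p under 0.05). The smallest unadjusted p was 3.04e-05, and every adjusted p was 1.00. At an unadjusted p under 0.05 there were 1821 features, 2.9% of those tested, of which 983 stood higher and 838 lower with Fe2O3. DESeq2 on the same libraries also called 0 features, with 1576 at an unadjusted p under 0.05. In the same fit, 17 features (0.027%) were called with FeCl3, 1311 (2.09%) with ZnO and 3405 (5.42%) with ZnSO4. When the 8 control and Fe2O3 libraries were fitted alone, however, 24 of 58781 features were called (0.0408%), 22 of them lower with Fe2O3 and 16 of these metallothionein features, which are described further on.

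The changes were small in size as well as in number. Over all features the median size of the log2 change was 0.101, and the 95th percentile was 0.511. Sizes were smaller at higher counts: among the 38710 features with a mean log2 CPM of at least 1 the median size was 0.0711, the 95th percentile 0.269 and the greatest 1.02. For these features the precision was enough to bound the effect: the 95% interval lay within 1 log2 unit of no change for 99.7% of them and within 1.5-fold for 90.7%. Among the 5262 features with a mean log2 CPM of at least 5, 98.5% had an interval within 1.5-fold. Among the 24155 features under a mean log2 CPM of 1 it lay within 1 log2 unit for 60.2%, so that for most of the rest a change of that size was not excluded. Over all features the median size was 0.114 with FeCl3, 0.153 with ZnO (3 libraries) and 0.158 with ZnSO4.

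**Figure D1:**
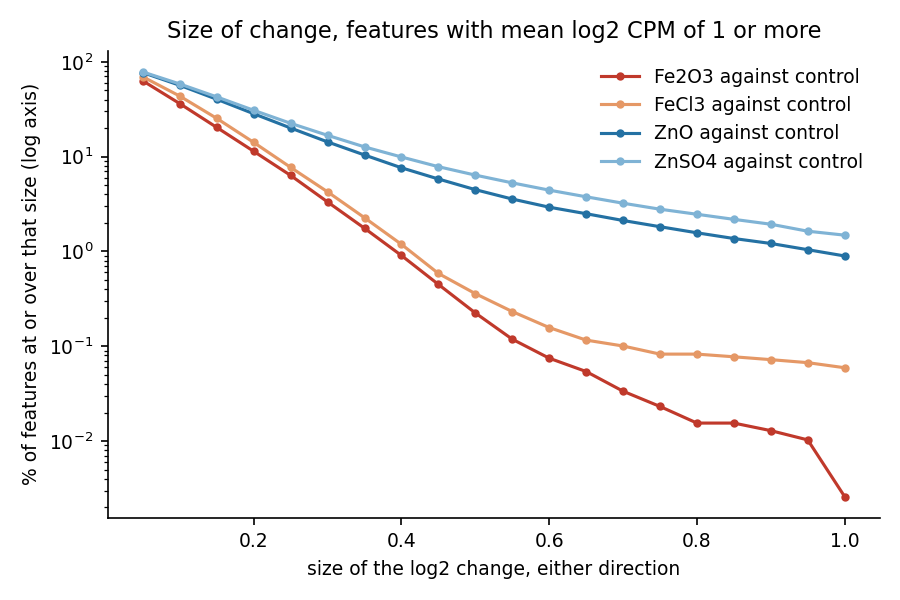
Percentage of features (logarithmic axis) whose log2 change against control, in either direction, was at least the size on the horizontal axis, for each treatment, over the 38710 features with a mean log2 CPM of 1 or more. The Fe2O3 curve lies lowest throughout and reaches 0.225% at a size of 0.5, where FeCl3 stands at 0.359%, ZnO at 4.48% and ZnSO4 at 6.38%.

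Fe2O3 libraries differed from the controls of their set by about as much as F1 libraries of the same treatment differed from each other. Over the 38710 features, the root-mean-square difference in log2 CPM was 0.266 between the 2 F1 controls and 0.258 between the 2 F1 Fe2O3 libraries. Between control and Fe2O3 libraries it was 0.251 to 0.275 in F1, 0.259 in F2 and 0.259 in F3. The F1 values for control with Fe2O3 thus straddle the values within a treatment, and so do those for control with FeCl3, at 0.252 to 0.291 in F1 (0.271 in F2 and 0.267 in F3), whereas control and ZnSO4 libraries differed by 0.394 to 0.483 and control and ZnO libraries by 0.344 to 0.431. The Fe2O3 changes measured separately in each set had little in common: across the 5262 features with a mean log2 CPM of at least 5, they correlated at 0.028 (F1 with F2), 0.11 (F1 with F3) and 0.085 (F2 with F3). For ZnSO4 these correlations were 0.37, 0.46 and 0.67, and for FeCl3 0.31, 0.31 and 0.51. Over the 38710 features they were -0.0044, 0.034 and 0.028 for Fe2O3, 0.11, 0.12 and 0.1 for FeCl3, and 0.27, 0.34 and 0.42 for ZnSO4. They are across features, which are not independent replicates, and each set contributes its own control libraries.

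**Figure D2:**
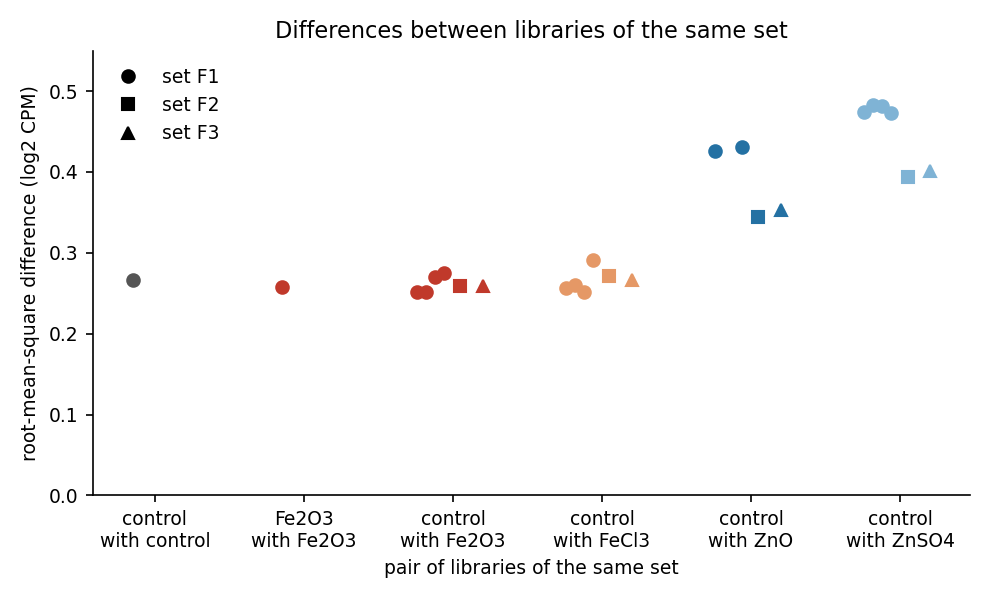
Root-mean-square difference in log2 CPM (vertical axis, from 0) between pairs of libraries of the same set, by the treatments of the pair. Each point is 1 pair and its shape gives the set. Control with Fe2O3 pairs lie between 0.251 and 0.275, around the control pair at 0.266 and the Fe2O3 pair at 0.258.

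The group of transcripts that stood apart with Fe2O3 was that of metallothionein. All 23 features named MT were lower with Fe2O3, by log2 changes of -0.22 to -0.78, and of the 24 members tested in the list of metallothioneins and zinc transporters 19 had an unadjusted p under 0.05, against 1.33% of all features lower at that p. The median of the list was -0.32, beside 6.12e-05 over all features tested. The 24th member, S39AE, a zinc transporter of the ZIP family, was at -0.04. None of the 24 passed the adjusted test in the fit to all libraries. The metallothionein list was drawn up with its rise in zinc known from these libraries. Its MT features may share reads, so they are not independent observations.

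Summed over the 23 features, whose near-identical copies may share reads, metallothionein stood at 5700 and 5710 CPM in the F1 controls and at 4330 and 4870 CPM in the F1 Fe2O3 libraries. In F2 it was 3780 CPM without and 3210 CPM with Fe2O3, and in F3 it was 6840 CPM without and 5280 CPM with. In each set every Fe2O3 library lay below every control, while across sets the groups overlapped, F2 being lowest and F3 highest in both. The means were 5510 ± 1270 CPM in controls and 4420 ± 896 CPM with Fe2O3 (SD, n = 4 each). The log2 difference within sets was -0.31 ± 0.08 (SE, 95% interval -0.48 to -0.14), or -0.31 in F1, -0.24 in F2 and -0.38 in F3. Its unadjusted p was 0.00102 and its adjusted p 1.00 in edgeR's quasi-likelihood fit to all 19 libraries. An exact permutation test of the treatment labels within sets gave a two-sided p of 0.0833, the smallest that its 24 arrangements allow.

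**Figure D3:**
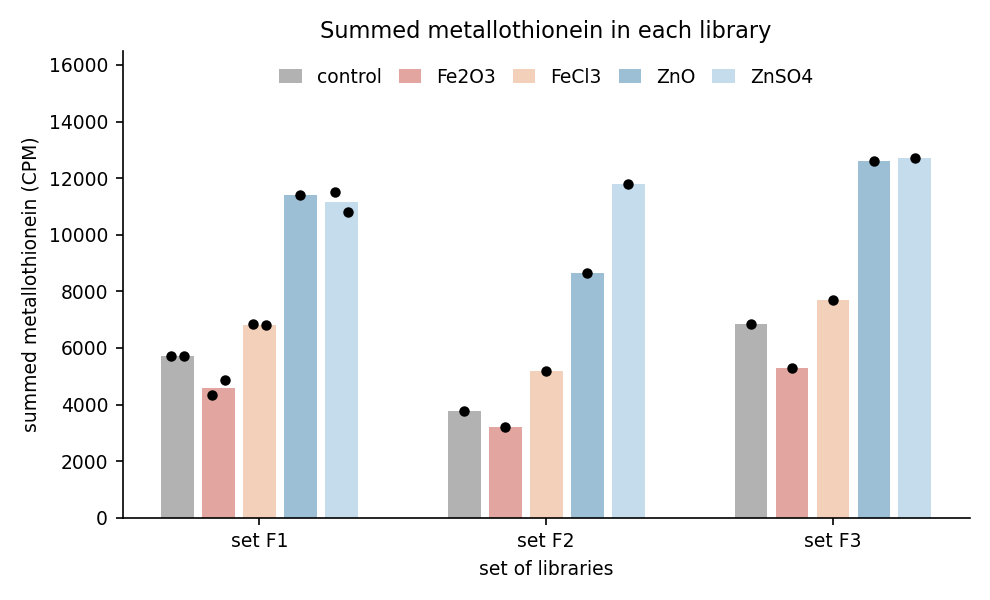
Summed metallothionein in CPM (vertical axis, from 0) in every library, by set and treatment. Points are libraries and bars their mean. In all 3 sets the Fe2O3 libraries, at 3210 to 5280 CPM, lie below the controls of the set, and the FeCl3 libraries lie above them.

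With the 8 control and Fe2O3 libraries fitted alone the difference was the same and its error smaller, -0.31 ± 0.04 (SE), and metallothionein passed the test (adjusted p = 4.21e-06, edgeR). In that fit 16 of the 23 MT features were called lower, against 0.0374% of all features. The 16 differed by -0.28 to -0.49 on the log2 scale. Among them MT.22.23 fell the most (-0.49 ± 0.06, adjusted p = 6.04e-06, edgeR). In F1 it went from 151 and 180 CPM to 106 and 114 CPM. In F2 it went from 23.5 to 18.9 CPM and in F3 from 270 to 203 CPM. The common dispersion, a measure of the spread between libraries, was 0.00686 in this fit and 0.015 in the fit that includes the other treatments; whether that accounts for the difference in calls was not tested. Among the calls outside metallothionein, the locus tag CRE_03576.1.2 had the greatest fall (-0.72 ± 0.09, adjusted p = 4.16e-05, edgeR). It did not fall in every set, with 10.3 CPM in the F2 control and 10.8 CPM in the F2 Fe2O3 library. Against control it was at -0.07 with ZnO and -1.24 with ZnSO4 in the fit to all libraries. The other lower calls outside metallothionein were 5 contigs. In the same fit these stood above control, at 0.74 to 1.03 with ZnO and 0.96 to 1.28 with ZnSO4. DESeq2 on the 8 libraries called 20 features, 15 of them MT features that were lower. Leaving out the F3 control or the F3 Fe2O3 library reduced the 24 calls to 14 and the 16 MT features among them to 8, as did leaving out set F3 for the MT features, and leaving out the second F1 Fe2O3 library raised them to 39. The sum stayed past the threshold without each library in turn (adjusted p at most 0.00815). F2 and F3 hold 1 library of each group, so leaving out either one also removes that set from the comparison. These are not separate checks: the sum was -0.286 without the F3 control, the F3 Fe2O3 library or set F3.

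Single metallothionein features are the parts of the sum and may share reads, so their counts are not separate evidence. Of the 23, 20 had every Fe2O3 library below the controls of its set, as 4.15% of all features had, and the exceptions were MT.12.23, MT.19.23 and MT.23.23. By set, 23 features were lower in F1, 22 in F2 and 22 in F3, and 21 were lower in every set (12.6% of all features were), with medians of -0.35, -0.23 and -0.38. The greatest differences were in features of low level. MT.17.23 measured 4.94 and 4.74 CPM in F1 controls, 2.74 in F2 and 3.38 in F3, and 2.58, 2.72, 1.41 and 2.71 CPM in the matching Fe2O3 libraries (-0.73 ± 0.15, adjusted p = 1.00 in edgeR). Only the F2 library at 1.41 CPM lay clearly apart from the other Fe2O3 libraries, and every control was above its own set's Fe2O3 libraries. MT.2.23 differed by -0.78 ± 0.17, with 4.71, 3.53, 2.70 and 3.50 CPM in the controls (F1, F1, F2 and F3) and 1.98, 2.72, 1.29 and 2.39 CPM with Fe2O3. Some features also differed widely between sets: MT.6.23 stood at 28.2 and 31.6 CPM in F1 controls, 522 in F2 and 35.3 in F3.

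**Figure D4:**
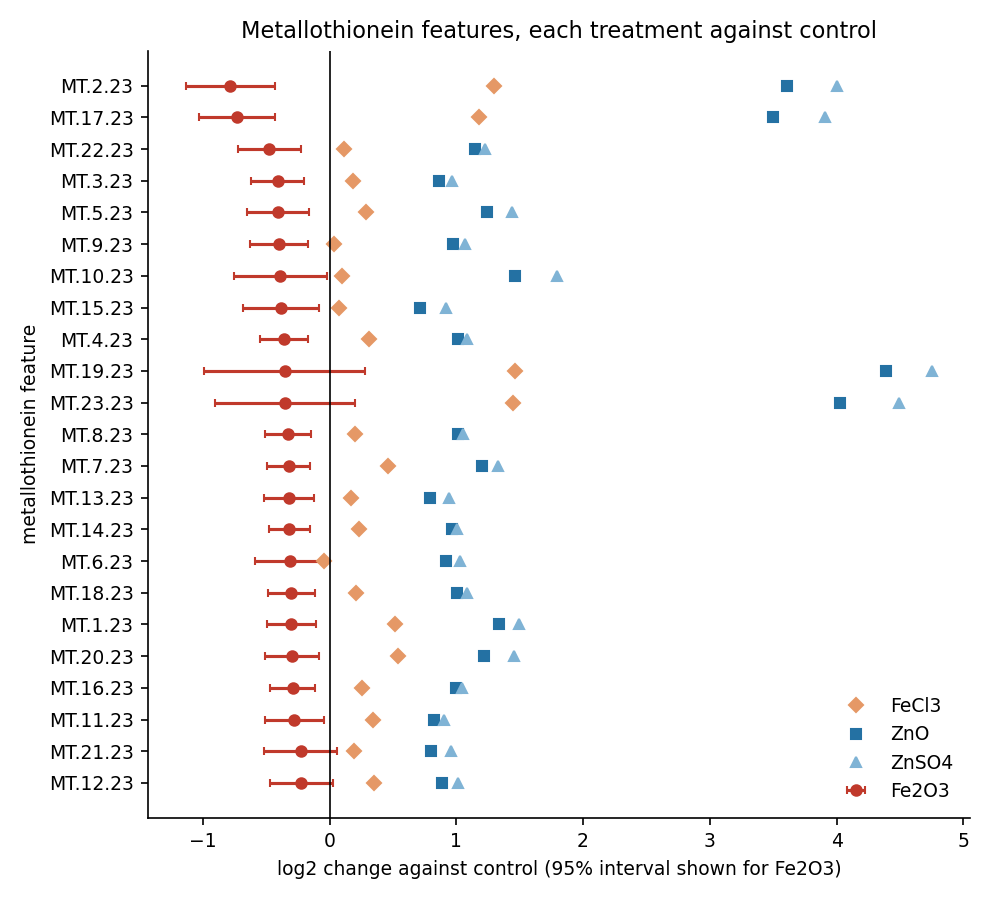
Log2 change against control of the 23 metallothionein features with each treatment, with the 95% interval for Fe2O3, from the fit to all 19 libraries. Fe2O3 values run from -0.22 to -0.78, all left of 0, and those of both zinc treatments are all right of 0.

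Metallothionein separated the particle from the iron salt. The sum stood at 6840 and 6800 CPM in F1, 5180 in F2 and 7680 in F3 with FeCl3, above both the controls and the Fe2O3 libraries of each set. The direct difference between Fe2O3 and FeCl3 was -0.59 ± 0.08 (SE, adjusted p = 0.00114, edgeR fit to all libraries), and 16 MT features were called lower with the particle, where 0.07% of all features were. Against control, the FeCl3 value was 0.28 ± 0.08 (adjusted p = 0.999) for the sum, and 5 MT features were called higher, as were 0.0239% of all features. The same controls serve both treatments. Against ZnO and ZnSO4 the sum with Fe2O3 was lower by log2 differences of -1.32 ± 0.09 (adjusted p = 8.64e-10) and -1.44 ± 0.08 (adjusted p = 4.31e-11).

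In all, 46 features differed between Fe2O3 and FeCl3 (0.0732%), 44 of them lower with the particle: the 16 MT features and 28 numbered contigs, by -0.49 to -3.07. Each of the 44 was also called higher in ZnO than in control embryos, and each in ZnSO4 than in control embryos. In those comparisons 0.948% and 2.35% of all features were called higher. They compare other groups but come from the same fit to all 19 libraries, so they are not independent of the Fe2O3 and FeCl3 comparison. The values of the 44 features against control ran from -0.96 to -0.10 with Fe2O3 and from 0.11 to 2.11 with FeCl3. The 44 were picked as lower with Fe2O3 than with FeCl3, which favours values on opposite sides of the shared controls. These signs are therefore no separate evidence. contig_50659 is an example, with 14.7 and 12.2 CPM in F1 controls, 5.44 in F2 and 9.69 in F3. Its Fe2O3 libraries measured 8.01, 9.91, 4.93 and 8.21 CPM, below the controls of each set. The count of 46 fell to 27 without the first F1 Fe2O3 library, to 30 without the F3 Fe2O3 library and to 28 without the F3 FeCl3 library, and to 27 when the F1 libraries of a treatment were summed.

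LOC587958.3.3, a feature with no gene name in the files, was one of the 2 (0.00318% of all features) that were higher with Fe2O3 than with FeCl3, by 0.97 ± 0.17 (adjusted p = 0.0123, edgeR). It measured 15.8 and 12.9 CPM in F1 controls and 26.3 and 21.9 CPM in F1 with Fe2O3. In F2 it went from 12.0 to 19.7 CPM and in F3 from 47.1 to 66.3 CPM, so that each Fe2O3 library was above the controls of its set. Against control the log2 difference was 0.67 ± 0.16 (adjusted p = 1.00 with all libraries), and with the 8 libraries alone it rose by 0.66 ± 0.07 (adjusted p = 4.16e-06). It was lower than in controls with both zinc treatments, at -1.39 ± 0.20 for ZnO and -1.47 ± 0.18 for ZnSO4 (adjusted p = 0.000139 and 7.34e-06, edgeR). The other of the 2 features (0.0034%) that rose in the fit of the 8 libraries, LOC100892571, was picked out after its values were seen. It was at 53.7, 57.6, 14.5 and 43.8 CPM in controls (F1, F1, F2 and F3) and at 64, 68.5, 19.6 and 54 CPM with Fe2O3. Each Fe2O3 library was above the controls of its set (0.30 ± 0.06, adjusted p = 0.0206, edgeR). Both LOC features were picked by tests that favour this order. Its share over all features is not given here, and 4.15% of them had the reverse order. Unlike LOC587958.3.3, LOC100892571 was also higher with zinc. Against control it was at 0.31 with Fe2O3, 1.43 with ZnO and 1.41 with ZnSO4 in the fit to all libraries.

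Genes of iron handling were close to control levels in exposed embryos. The measured members of the iron and heme list were 5, of which none was called with Fe2O3 and none had an unadjusted p under 0.05, with a median of -0.015. Ferritin and transferrin receptor were not analysed here. FECH and HEMH, 2 features named for ferrochelatase, the enzyme that puts iron into heme, were at -0.05 ± 0.08 and -0.02 ± 0.08. FECH stood at 30.1 and 33 CPM in F1 controls and 29.1 and 27.6 CPM in F1 with Fe2O3, at 27.3 against 31.7 CPM in F2 and at 19.3 against 17.7 CPM in F3. The Fe2O3 library was thus the higher one in F2 and the lower ones were in F1 and F3. HEMH stood at 21.0 ± 5.51 CPM in controls and 20.7 ± 5.06 CPM with Fe2O3 (SD, n = 4 each).

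ISCU, the scaffold protein of iron-sulfur cluster assembly, was at 4.97 ± 0.983 CPM in controls and 5.07 ± 0.754 CPM with Fe2O3, a log2 difference of 0.04 with a 95% interval of -0.21 to 0.29. SFXN5, a mitochondrial carrier of the sideroflexin family, was at 5.51 ± 1.46 and 5.41 ± 0.423 CPM, with an interval of -0.28 to 0.26. MYP, the yolk protein related to transferrins, was scarce at this stage, at 0.235 to 1.76 CPM, and its interval of -0.75 to 0.52 was the widest of the list. The 0.235 CPM was that of the F2 Fe2O3 library, and the other 3 Fe2O3 libraries lay at 1.31 to 1.76 CPM. For all 5 the interval excluded a change of 1 log2 unit in either direction.

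Most features of a list of zinc-changed genes were near control levels with Fe2O3. The list holds no MT feature, and the MT features, which zinc raised, were lower with Fe2O3. Of the 19 features that earlier results of these data gave as changed by zinc, none was called with Fe2O3, 17 lay within 0.15 log2 units of control, and the median was -0.028. In the direct tests, 10 of the 19 were called higher and 2 lower with Fe2O3 than with ZnO (1.16% and 1.01% of all features), and 12 higher and 5 lower than with ZnSO4 (3.13% and 2.36%). The list was chosen on the zinc libraries, so these counts are no independent evidence. HMB1 is an example, at 175 and 180 CPM in F1 controls against 178 and 168 CPM with Fe2O3. Its F2 libraries were at 94.3 and 101 CPM and its F3 libraries at 180 and 167 CPM, control first, and the zinc libraries of all sets were at 17.2 to 52.5 CPM. Its log2 change was -0.03 ± 0.19 with Fe2O3 (interval -0.42 to 0.37), and it was higher by 2.07 ± 0.23 than with ZnO (adjusted p = 3.84e-06).

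DLX, a homeobox gene of ectoderm patterning, was at 66.8 ± 19.0 CPM in controls and 63.2 ± 20.1 CPM with Fe2O3, and stood above ZnSO4 by 1.85 ± 0.30 (adjusted p = 0.000273). CHRD (chordin), an antagonist of bone morphogenetic proteins, was at 277 ± 33.6 CPM in controls and 273 ± 31.3 CPM with Fe2O3. Its interval of -1.04 to 0.99 did not exclude a fall of 1 log2 unit. It was at 4.29 to 79.1 CPM in the ZnSO4 libraries. With ZnO it was at 79.1, 322 and 116 CPM in F1, F2 and F3 and was not called against control (adjusted p = 0.54, edgeR). MMP16, a membrane-type matrix metalloproteinase, was at 6.94 ± 2.95 CPM in controls and 7.01 ± 2.48 CPM with Fe2O3. The feature ACTG1, a cytoplasmic actin, was at 134 ± 31.9 and 132 ± 30.9 CPM. ACAC.1.3, acetyl-CoA carboxylase, differed by -0.09 ± 0.18, and CPT1A and CPT1B, carnitine palmitoyltransferases of fatty acid oxidation, by -0.03 ± 0.09 and -0.01 ± 0.09. Of the heat shock protein features, HSP74.1.2 was too scarce to bound, at 0.357 to 2.15 CPM over the 8 libraries, with an interval of -1.91 to 0.99.

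**Figure D5:**
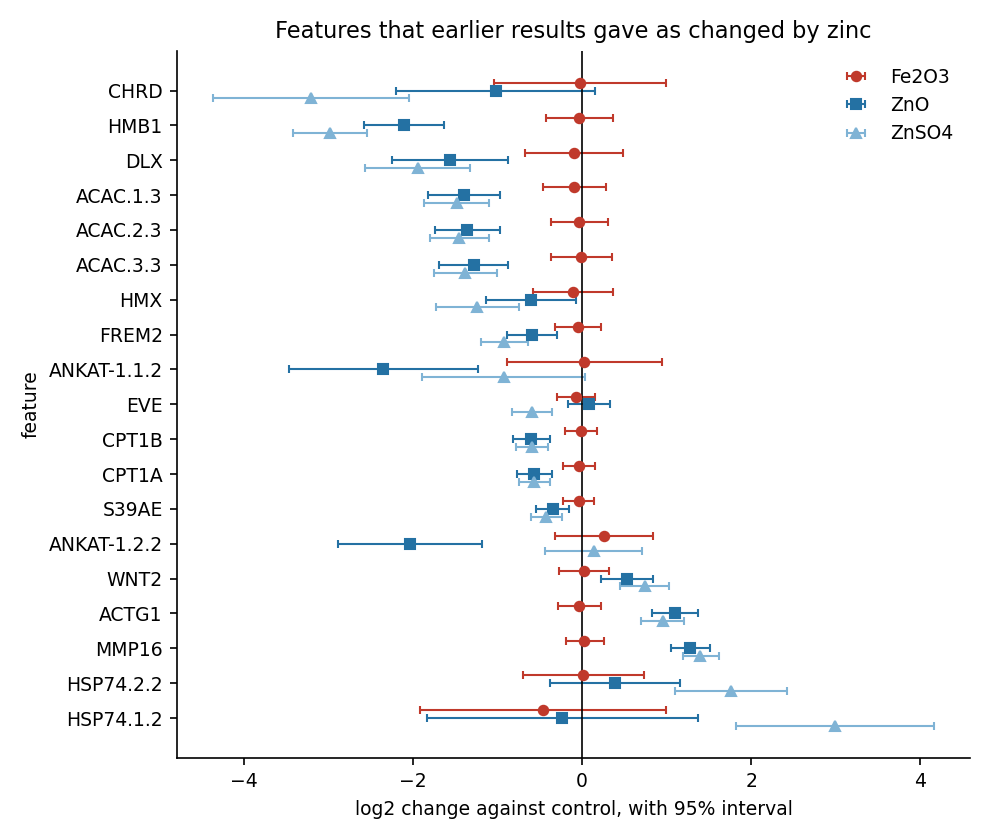
Log2 change against control (points) with the 95% interval (bars) of the 19 features that earlier results gave as changed by zinc, for Fe2O3, ZnO and ZnSO4. The Fe2O3 points lie close to 0, 17 of them within 0.15, and the zinc points spread from -3.20 to 2.99.

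Over the whole table, 1365 features (2.17%) differed between Fe2O3 and ZnO embryos and 3449 (5.49%) between Fe2O3 and ZnSO4 embryos. With ZnO, 729 were higher and 636 lower in Fe2O3 embryos, and with ZnSO4, 1968 were higher and 1481 lower. The ZnO count fell to 894 without the F3 Fe2O3 library and to 688 without the F1 ZnO library.

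None of the 281 members of 18 further lists was called with Fe2O3, and list medians ran from -0.047 to 0.035. At an unadjusted p under 0.05, 4 stood higher and 0 lower, where 1.56% and 1.33% of all features did. The 10 heat shock and chaperone features had a median of -0.047, with the chaperones of the endoplasmic reticulum CALRET (calreticulin) and HSP90B1 at -0.06 ± 0.08 and -0.05 ± 0.07. The 16 antioxidant and redox features had a median of -0.027. GPX1, a glutathione peroxidase, was at -0.08 ± 0.12, and DUOX1.2.2, a dual oxidase, at -0.19 ± 0.12. Among 13 features of xenobiotic transport and metabolism, ABCC1.3.3, an efflux transporter of the multidrug resistance family, was at 0.15 ± 0.07 (unadjusted p = 0.0454, adjusted p = 1.00).

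Lists of developmental genes had medians as close to 0. The 16 skeleton features had a median of -0.018, with SM30A.1.2, a spicule matrix protein gene, at 0.10 ± 0.13 and SM41.1.3 at -0.09 ± 0.09. Endoderm and gut features (11) had a median of -0.037, EVE at -0.07 ± 0.11 and CTNB (beta-catenin) at -0.03 ± 0.05. All 9 ectoderm patterning features lay below 0, from -0.108 to -0.0175, and none had an unadjusted p under 0.05. The 9 features of the apical plate and neurons had a median of 0.033, and the 7 of pigment and immune cells one of -0.027, with complement component C3 at -0.11 ± 0.12. The 50 features of cilia and tubulin had a median of 0.013, and 2 of them, TBA.4.4 (an alpha-tubulin, 0.70 ± 0.33) and KRP85, had an unadjusted p under 0.05.

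The 13 ribosomal protein features ranged from -0.0546 to 0.0367, and the 22 features of oxidative phosphorylation had a median of -0.027. The medians were 0.02 for 23 histone features, 0.023 for 6 cell cycle features, -0.028 for 12 features of actin and muscle, -0.031 for 16 of calcium handling and -0.017 for 9 of fatty acid metabolism. The 7 features of apoptosis and DNA damage had a median of -0.042, and 1 of them, FANCI of the Fanconi anemia repair pathway, was at 0.60 ± 0.29 at a mean log2 CPM of 0.06 (unadjusted p = 0.049). Among the 32 features of matrix and secreted proteases, median -0.022, BP10.1.6, a blastula protease of the astacin family, was at 1.02 ± 0.55 (adjusted p = 1.00). That value rests on the first F1 Fe2O3 library at 20.5 CPM, while the other 7 libraries lay between 2.27 and 3.95 CPM.

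Gene-named features with a mean log2 CPM of at least 1 were also ranked by p, with only the feature of smallest p kept for each name, so that MT.17.23 stands for all MT features. The first 12 on the higher side had log2 differences of 0.14 to 1.02, 6 of them at an unadjusted p under 0.05. The first 12 on the lower side had differences of -0.73 (MT.17.23) to -0.10, with 5 at that p. KRP85, a motor subunit of kinesin-2, measured 3.73 and 3.22 CPM in F1 controls and 3.59 and 4.58 CPM in F1 with Fe2O3. It went from 1.3 to 2.23 CPM in F2 and from 1.63 to 2.64 CPM in F3 (0.45 ± 0.16, unadjusted p = 0.0117, adjusted p = 1.00). The groups overlapped in F1, while F2 and F3 hold 1 library of each group and cannot show an overlap. LSM6 and LSM5.2.2, Sm-like proteins of RNA processing, were at 0.21 ± 0.08 and 0.25 ± 0.10. Every Fe2O3 library was above the controls of its set for both: LSM6 was at 8.26, 8.16, 10.5 and 22 CPM in controls and at 8.98, 9.46, 13.2 and 25.0 CPM with Fe2O3, in the order F1, F1, F2 and F3. Both were picked by small p, which favours this order. The share of all features with it is not given here, and 4.15% had the reverse order. ZN782, a zinc finger protein, was at 0.37 ± 0.15, and PK3C3, the class III phosphatidylinositol 3-kinase, at -0.24 ± 0.09. All had an adjusted p of 1.00.

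Among features without a gene name, contig_01347 had the smallest p of the table. It measured 1.58 and 1.58 CPM in F1 controls, 2.32 in F2 and 3.14 in F3, against 0.823, 1.1, 0.626 and 1.43 CPM with Fe2O3, a log2 difference of -1.09 ± 0.21 (adjusted p = 1.00). contig_24045 followed among the lower ones at -0.46 ± 0.10, with 20.4 and 21.5 CPM in F1 controls, 5.86 in F2 and 336 in F3, against 17.1, 12.6, 5.05 and 231 CPM. In both, every Fe2O3 library lay below the controls of its set, as in 4.15% of all features, and both were picked by small p. With the 8 libraries alone contig_24045 fell by 0.48 ± 0.07 (adjusted p = 0.00033), and contig_01347 was not among the 24 called. On the higher side contig_07980 stood at 0.83 ± 0.18 and LOC584878.3.4 at 0.63 ± 0.14, both with an adjusted p of 1.00.

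Whether the Fe2O3 difference depended on the set was tested with set-by-treatment terms, whose spread comes from the F1 pairs (4 residual degrees of freedom). One feature was called, 0.00159% of those tested, and 2271 (3.61%) had an unadjusted p under 0.05. LOC577189.1.2 measured 593 and 452 CPM in F1 controls and 514 and 478 CPM in F1 with Fe2O3, 46.9 and 43.4 CPM in F2, and 181 and 55.4 CPM in F3. The control and Fe2O3 libraries overlapped in F1, were close in F2 and stood apart in F3, with log2 differences of -0.07, -0.11 and -1.71 (adjusted p = 0.00884 for the difference between sets, edgeR). In F3 the libraries of FeCl3, ZnO and ZnSO4 were at 37.5, 38.7 and 35.7 CPM, beside the 55.4 CPM of Fe2O3. Over all sets the feature was lower with FeCl3 than in controls by -1.63 ± 0.22 (adjusted p = 0.000746), and it was higher with Fe2O3 than with FeCl3 by 1.1 ± 0.21 (adjusted p = 0.0463).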

How the data were processed

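RNA of whole embryos was sequenced after poly(A) selection, per the labels' protocols. The authors deposited 1 table of raw counts, 63389 features by 19 libraries, without normalization. Per the submitters' processing notes the tools were SAMtools 1.3.1, Trim Galore 0.4.0 and BWA 0.7.12-r1039. Not given in the sources used here are the assembly mapped to, the counter, whether strand was used, and what became of multiply matching reads. Reads of near-identical features could be divided or lost there, so single MT features are uncertain and their sum was tested too. Of the features, 51360 were contigs, 11343 LOC identifiers, 110 locus tags and 576 gene-named, with 391 different names.

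Counts were analysed with edgeR 4.0.16, limma 3.58.1 and DESeq2 1.42.0 in R 4.3.3. After filterByExpr on treatment (62865 features) and TMM scaling (factors 0.963 to 1.03 in the 8 libraries), all 19 libraries entered 1 quasi-likelihood model of set plus treatment (12 residual and 11.1 prior degrees of freedom), and adjusted p-values are Benjamini-Hochberg over all features of a contrast. SE is the size of the log2 change over the square root of F, and intervals are 95%. The fit of the 8 libraries alone had 4 residual and 33.7 prior degrees of freedom. Mean log2 CPM uses a prior count of 2. The scripts were tested on simulated data.

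Set names in the titles pair the libraries: control and Fe2O3 libraries of a set deviated together from their treatment means (correlations 0.855 to 0.937). Named genes were the called ones, the 12 higher and 12 lower gene-named features of smallest p with a mean log2 CPM of at least 1 and only 1 feature per name, the metallothionein, iron and zinc-changed lists, up to 4 members of each other list, the 10 most abundant, and up to 2 unnamed features per direction. Members and lists were chosen with earlier results of these data known, and spellings were completed from the feature names. The alternatives were RLE size factors, DESeq2, no or a stricter filter (CPM of 2 in 4 libraries), no set term, a replicate block, only the groups compared, summed F1 libraries, and leaving out each library or set. Settings within the fit of the 8 libraries were added after the data were seen. No reference sequences were used here.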

Additional observations from a re-analysis of the deposited data

Results flagged for a closer look

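Among 41 features described by library, 82 groups of 4 libraries were searched for a library far from its group, and 14 were found, 8 in F2 and 6 in F3. Chance flags about 1 group in 20 where the 4 libraries are alike, which these are not: F1 has 2 libraries in each group and F2 and F3 have 1, and libraries of a set deviated together. HMB1 was lowest in F2 in both groups, at 94.3 CPM in the control and 101 CPM in the Fe2O3 library. WNT2, a signalling ligand, was highest there in both, at 79.7 and 83.9 CPM. The F2 Fe2O3 library was also lowest for HMX (96.6 CPM) and MT.17.23 (1.41 CPM) and highest for MMP16 (10.7 CPM), and the F2 control was lowest for contig_07980 (0.491 CPM). In F3, both libraries were highest for contig_24045, at 336 CPM in the control and 231 CPM with Fe2O3, and for LOC587958.3.3, at 47.1 and 66.3 CPM. The F3 control was highest for LSM6 (22 CPM) and the F3 Fe2O3 library for ACTG1 (178 CPM).

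LOC577189.1.2 was the feature whose Fe2O3 difference varied between sets (adjusted p = 0.00884, edgeR), being -0.07 in F1, -0.11 in F2 and -1.71 in F3.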

How the results depend on the processing

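The comparison with control gave 0 called features under RLE scaling, DESeq2, no filter, the stricter filter, no set term, the replicate block, summed F1 libraries and without each set. Leaving out each library gave 0 to 1, the 1 without the F3 Fe2O3 library (MT.17.23, adjusted p = 0.0262). The fit of the 8 libraries alone gave 24. Within that fit there were 26 calls with RLE, 28 with the replicate block, 20 with DESeq2, 67 without set F1, 26 without F2 and 16 without F3. Leaving out the controls in the order F1, F1, F2 and F3 gave 25, 34, 23 and 14 calls there, and leaving out the Fe2O3 libraries 22, 39, 23 and 14. Leaving out either library of F2 or F3 there removes that set's pair, so those counts are not separate checks.

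Summed metallothionein, at -0.311 with an adjusted p of 1.00, kept its direction under every setting and passed the threshold in the fit of the 8 libraries: -0.308 as it stands, with RLE and with DESeq2, -0.309 with the replicate block, -0.305, -0.333 and -0.286 without F1, F2 or F3 (4 libraries remain without F1), and -0.341 to -0.275 without each library (-0.306 without the second F1 control). In the fit to all libraries it was -0.388 to -0.262 without each library, and its adjusted p ranged from 0.119 (without set F2) to 1.00.

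The median size of change was 0.108 to 0.12 without each library and moved to 0.133 without set F1. The percentage of intervals within 1 log2 unit, 84.5, was 83.2 with DESeq2, 82.1 with F1 summed, 83.8 without a filter, 97.4 with the stricter filter, 51.8 without the set term, 91.6 with the 8 libraries, 72.6, 79.9 and 80.2 without F1, F2 or F3, and 80.7 to 81.5 without each library.

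Called features against FeCl3, ZnO and ZnSO4 numbered 27, 884 and 1713 with F1 summed and 0, 35 and 122 without the set term. With only the 2 groups they numbered 78, 1235 and 2135. The replicate block gave 45, 599 and 3513, the ZnO library of F1 having no number of its own. Without each library the ranges were 27 to 39, 688 to 1385 and 2314 to 4081. The set-by-treatment count stayed at 1 under RLE and both filters. Of 2687 values of 142 named features, 62 moved by more than 1 SE, 19 newly passed the threshold in the same direction and 0 in the opposite one. No named feature was called with Fe2O3 in the fit to all libraries, so there was no call to reverse. Rep numbers within F1 did not pair libraries, the differences between rep1 and rep2 correlating at -0.139 to 0.118 between treatments. Features under a mean log2 CPM of 1 are limited by depth.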

Other observations

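The 10 gene-named features most abundant in controls, at 1240 to 14900 CPM, had log2 changes of -0.08 to 0.01 with Fe2O3 and 95% intervals between -0.32 and 0.23. They include the mitochondrial transcripts NU5M.1.2 (subunit 5 of NADH dehydrogenase, -0.02 ± 0.05) and CYB (cytochrome b, -0.03 ± 0.05), the histone variants H2AV.2.2 (0.00 ± 0.05) and H33.1.3 (0.00 ± 0.05), the actin ACTC.1.2 (0.01 ± 0.06), the arylsulfatase ARS.2.5 (-0.08 ± 0.12) and the fibropellin FBP1.3.5 (-0.05 ± 0.07).

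NU6M, named for subunit 6 of mitochondrial NADH dehydrogenase, was at 235 and 267 CPM in the F1 controls, 194 CPM in the F3 control, 209 and 225 CPM in F1 and 185 CPM in F3 with Fe2O3, but at 0.0351 CPM in the F2 control and listed at 0 in the F2 Fe2O3 library. The other mitochondrial features named above were present in F2, NU5M.1.2 at 19500 CPM in both libraries.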
